A study of Mus musculus with 12 samples.

Results

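Transcripts of 9 astrocyte genes were followed through the arcuate nucleus (ARC) of mice with and without a mutation in AMPK: Slc1a2, Slc1a3, Glul, Aqp4, Gja1, Gfap, S100b, Aldh1l1 and Sox9. They were picked by gene symbol, 9 of the 38283 rows of the deposited expression table, and each symbol stood on 1 row. The ARC, the hypothalamic nucleus that holds the AGRP and POMC neurons of appetite control, was cut by laser from frozen mouse brain sections, giving 5 WT and 7 Homo samples. The mice were C57BL/6 males aged 8 weeks and fed ad libitum. Homo mice carried the R299Q substitution in both copies of Prkag2, which encodes the γ2 subunit of AMPK, and WT mice carried none. The mutation is a germline knock-in, so that neurons, astrocytes and every other cell of the capture carried it and no cell type was targeted. The labels number the samples within each genotype without stating that each is a separate animal, so the p-values measure the spread between these samples. The comparison asks whether transcripts of astrocytes differ in the ARC of Homo mice.

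Astrocytes are the glial cells that wrap synapses and blood vessels. They clear glutamate from the synaptic cleft through the transporters GLT-1 and GLAST, convert it to glutamine with glutamine synthetase and hand the glutamine back to neurons. Water and ions pass through channels concentrated on their endfeet, gap junctions couple neighbouring cells, and on injury they build up the intermediate filament GFAP. In the ARC they lie beside AGRP and POMC neurons, and tanycytes, the related cells that line the base of the third ventricle, carry several of the same transcripts.

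Values were in FPKM, fragments per gene scaled to the size of each library and to the length of the transcript, so that levels may be set side by side between genes, though only roughly. The RNA had been amplified, and how evenly each transcript was covered was not tested. The libraries fell into 2 sets that differed in how many genes they detected. WT 1, WT 2 and Homo 1 to Homo 5 listed between 15742 and 16467 genes above 0 and are called the low-detection set, and WT 3, WT 4, WT 5, Homo 6 and Homo 7 listed between 18141 and 18635 and are called the high-detection set. Nothing in the labels marks these sets, although Homo 6 and Homo 7 are titled in another form than the rest. From the spacing of low values, 1 fragment on 1 kb was estimated at 0.152 to 0.328 FPKM in the low-detection set and at 0.0859 to 0.123 FPKM in the high-detection set, which by this measure was the deeper. On this estimate the thinnest value of a gene rested on 36 fragments for Aldh1l1 (WT 2), 48 for Sox9 (Homo 3) and 54 for Gfap (Homo 4), the lowest minima among the 9 genes, with counting errors of 16.7%, 14.5% and 13.6%. These cover counting error only, and the estimate is rough. Steps between low values were only weakly seen in Homo 3 and WT 2, so the counts of fragments there are uncertain. Prkag2 itself lay between 7.73 and 22.5 FPKM in WT and between 8.61 and 24.0 FPKM in Homo, and since the mutation changes 1 residue its level does not check the labels. WT 3 stood apart from the rest, since its 10 highest genes held 98.1% of its summed FPKM against 95.9% to 97.1% elsewhere, and it had the lowest summed level of the WT libraries in 9 of the 15 gene lists used here, neurons and microglia included, though not for the 9 astrocyte genes. Each genotype difference is given over all 12 libraries and, where it matters, within the sets.

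Slc1a3 with Gja1 and Glul with Aqp4 were the pairs with the highest Pearson r across libraries. For this reason the stretch of 250 bases before the start of transcription is shown for Slc1a3, Glul and Gja1. RefSeq listed such a stretch for 7 of the 9 genes, without Aqp4 and Sox9, and these 3 are ones whose listed start lay within 50 bases of the start of a principal transcript (43, 15 and 30 bases). The sequences are RefSeq's on GRCm38.p6, read on the strand of the gene, 5′ to 3′. Slc1a3 comes from the minus strand of chr15:8710808-8711057, Glul from the plus strand of chr1:153899679-153899928 and Gja1 from the plus strand of chr10:56377050-56377299. Capitals mark matches on either strand to the STAT motif TTCNNNGAA, the nuclear factor I core TTGGC and the SOX core ACAAT, 3 families of factors known from astrocyte development.
Slc1a3: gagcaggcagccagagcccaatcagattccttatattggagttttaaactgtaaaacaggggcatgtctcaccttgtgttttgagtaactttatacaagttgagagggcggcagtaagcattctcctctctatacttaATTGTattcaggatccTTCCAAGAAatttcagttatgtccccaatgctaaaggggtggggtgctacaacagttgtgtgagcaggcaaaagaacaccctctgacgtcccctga
Glul: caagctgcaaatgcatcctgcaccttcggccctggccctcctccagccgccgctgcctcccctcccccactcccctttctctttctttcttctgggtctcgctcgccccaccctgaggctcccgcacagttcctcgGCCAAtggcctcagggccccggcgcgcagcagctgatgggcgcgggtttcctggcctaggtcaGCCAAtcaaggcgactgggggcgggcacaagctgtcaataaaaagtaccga
Gja1: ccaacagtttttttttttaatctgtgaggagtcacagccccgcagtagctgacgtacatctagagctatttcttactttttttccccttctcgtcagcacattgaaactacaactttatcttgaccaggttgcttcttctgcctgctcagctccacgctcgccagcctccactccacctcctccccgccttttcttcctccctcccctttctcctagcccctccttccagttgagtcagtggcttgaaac
Slc1a3 held a STAT match that begins 96 bases before the start, next to a SOX core at 112 bases. The STAT motif was in 7.02% of the 32851 RefSeq stretches of that length and the SOX core in 27.7%, and of the 7 astrocyte genes with a stretch, each was in 1, Slc1a3. Glul held the nuclear factor I core at 114 and 51 bases and was the richest of the 7 in G and C (64.8%, with 15 CpG, against a median of 52.4% over all stretches). The core was in 3 of the 7 genes, Slc1a2 among them, and in 41.5% of all stretches. The listed start of Slc1a2 is that of another transcript and lay 47779 bases from the start of its principal transcript. Gja1 (6 CpG) held none of the 3 motifs, and Slc1a3 had 44.8% G and C and 2 CpG. A match is a description of the letters only.

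All 9 genes were present above 0 in all 12 libraries, and their levels spanned a wide range. By mean FPKM over the 12 libraries the order was Slc1a2 (171), Glul (132), Slc1a3 (77.1), S100b (28.9), Gfap (18.1), Gja1 (16.4), Aqp4 (15.0), Sox9 (6.96) and Aldh1l1 (4.67). Among the 14017 genes with a mean of at least 1 FPKM, Slc1a2 ranked above 97.1%, Glul above 96.3% and Slc1a3 above 93.8%, whereas Sox9 and Aldh1l1 stood below the middle at 47.5% and 35.7%. Glul exceeded Slc1a3 in 11 of 12 libraries, Slc1a3 exceeded S100b in 12, S100b exceeded Gfap in 11 and Aqp4 exceeded Sox9 in 12. Neighbours elsewhere in the order changed places: Slc1a2 exceeded Glul in 6 of 12 libraries (4 of 5 WT and 2 of 7 Homo, where the median of Glul, 135 FPKM, was above the 127 FPKM of Slc1a2), Gfap exceeded Gja1 in 7, Gja1 exceeded Aqp4 in 7 and Sox9 exceeded Aldh1l1 in 9. The 3 genes of glutamate handling, Slc1a2, Slc1a3 and Glul, made up between 75.4% and 86.2% of the summed FPKM of the 9 genes in each library. Single libraries recurred at the ends of the range, with Homo 1 the highest library for 4 of the 9 genes and Homo 3 the lowest for 5.

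**Figure D1:**
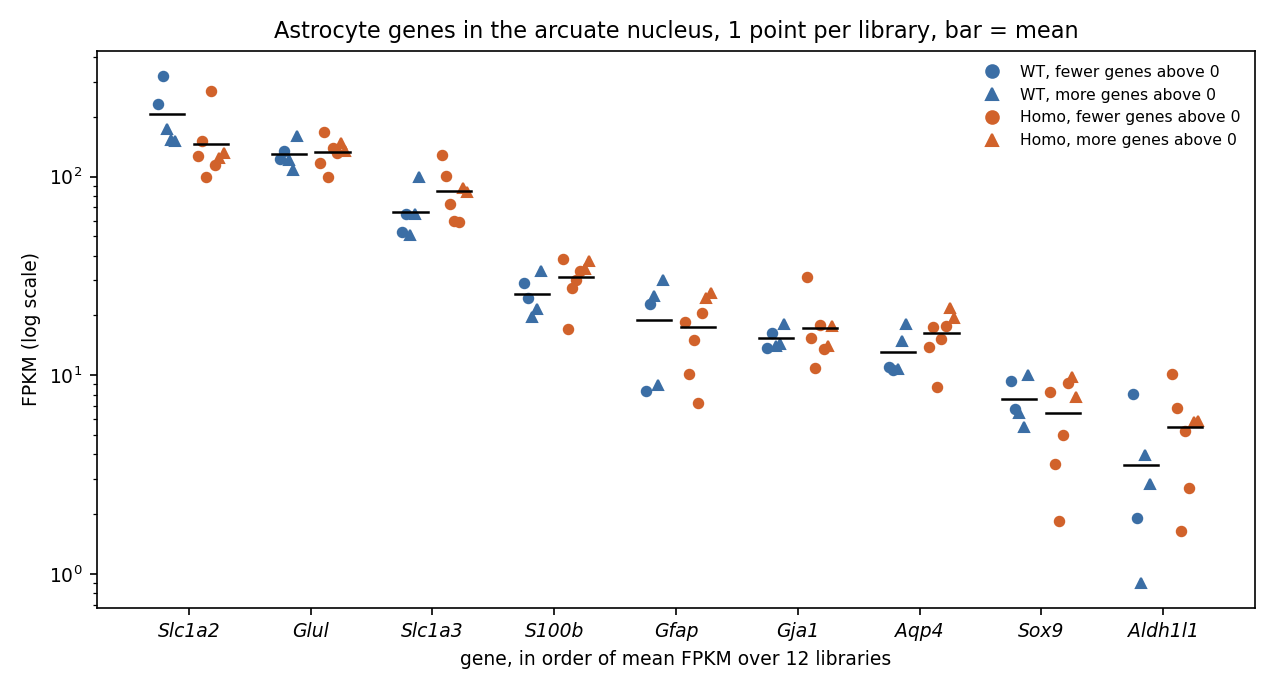
FPKM (log scale) of the 9 astrocyte genes in order of mean level, 1 point per library, with WT in blue and Homo in orange, circles for the low-detection set, triangles for the high-detection set, and bars at group means. The 2 genotypes overlap for each gene, and the levels run from a mean of 171 FPKM for Slc1a2 to 4.67 FPKM for Aldh1l1.

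No astrocyte gene differed between genotypes at an adjusted p under 0.05, and none separated the 2 groups. In limma on log2(FPKM + 1), 0 of the 9 passed the adjusted threshold, where 1 of all 14017 genes did (0.00713%), and 0 passed an unadjusted p under 0.05, where 5.55% of all genes did. Expression did not overlap between the genotypes for 0 of the 9 and for 0.221% of all genes. The mean was higher in Homo for 6 of the 9 against 49.3% of all genes, and the median log2 fold change of the 9 was 0.098 against −0.0062 over all genes. In bulk tissue of this kind, a difference in the number of astrocytes and a difference in RNA per astrocyte cannot be told apart.

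Slc1a2, which encodes GLT-1, the main glutamate transporter of the forebrain (chr2:102658659-102790784, plus strand, GRCm38), had the largest difference among the 3 genes of glutamate handling. Its level was 233, 321, 173, 154 and 151 FPKM in WT 1 to WT 5, and in Homo the lowest, median and highest values were 99.2, 127 and 269.7 FPKM. As many as 5 of the 7 Homo libraries lay below every WT library and Homo 2 lay level with the lowest WT, but Homo 4 stood above all WT libraries except WT 2. The means were 206 ± 72.0 FPKM (SD, n = 5) in WT and 145 ± 57.1 FPKM (SD, n = 7) in Homo. The log2 fold change was −0.51 (SE 0.25, 95% interval −1.05 to 0.026), with p = 0.0607 and adjusted p = 0.899 in limma and p = 0.0909 in the exact permutation test over every split of the libraries into 5 and 7, two-sided.

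That estimate moved with single libraries and with the library sets. Without Homo 4 it was −0.67 (limma adjusted p = 0.875, with an unadjusted p under 0.05), and without WT 2 it was −0.34 (limma adjusted p = 0.868). With the library set in the limma fit it was −0.65 (95% interval −1.18 to −0.12, p = 0.0191, adjusted p = 0.978), and the exact permutation test within the sets gave p = 0.0143, where the smallest value that its 210 rearrangements allow is 0.0048. In this fit Slc1a2 was the 1 gene of the 9 with an unadjusted p under 0.05, and 4.78% of all genes were. Within the low-detection set the fold change was −0.93 and within the high-detection set −0.32, and the test of that difference did not pass (limma interaction, adjusted p = 0.907). The level in WT itself differed with the set, at 233 and 321 FPKM in WT 1 and WT 2 against 151 to 173 FPKM in the other 3. Other genes share 1.49% of the 50-base stretches of the Slc1a2 transcript, most of them Gm13872, which stood at 1.30 to 7.47 FPKM.

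Slc1a3, which encodes GLAST, the second astrocytic glutamate transporter (chr15:8634124-8710764, minus strand), had its higher mean in the opposite genotype. It was 52.4, 65.1, 50.8, 65.1 and 99.1 FPKM in WT 1 to WT 5, and 58.8, 84.1 and 128 FPKM at the lowest, median and highest Homo library. Homo 1 and Homo 2 lay above every WT library, no Homo library lay below all of WT, and WT 5 stood apart from the other WT libraries. The means were 66.5 ± 19.4 FPKM (SD, n = 5) and 84.6 ± 24.3 FPKM (SD, n = 7), a log2 fold change of 0.34 (SE 0.22, 95% interval −0.14 to 0.82). This did not pass in limma (p = 0.154, adjusted p = 0.915) or in the exact permutation test (p = 0.165). The estimate was 0.23 without Homo 1 and 0.49 without WT 5 (limma adjusted p = 0.969, with an unadjusted p under 0.05).

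The ratio of Slc1a2 to Slc1a3 spread widely between libraries. It was 4.44, 4.93, 3.41, 2.36 and 1.52 in WT 1 to WT 5 and 0.990, 1.498, 1.36, 4.49, 1.95, 1.42 and 1.56 in Homo 1 to Homo 7. Except for Homo 4 each Homo library lay below WT 1 to WT 4, and WT 5 lay among the Homo libraries. The ratio was chosen after the values were seen and carries no test. Slc1a2 was above Slc1a3 in every library except Homo 1, where they were level.

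**Figure D2:**
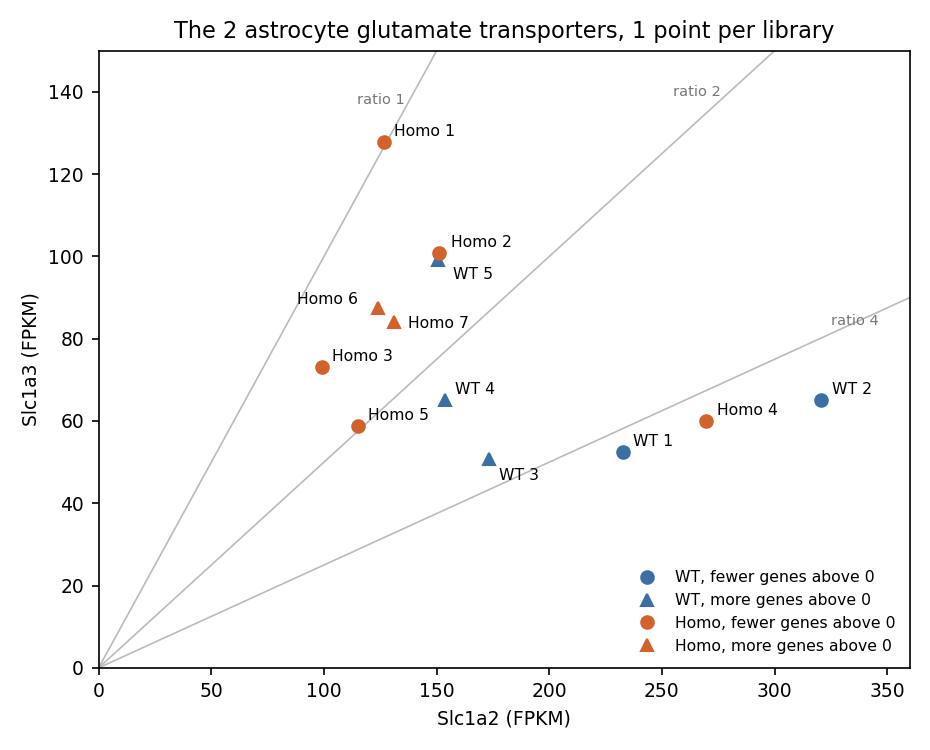
Slc1a2 against Slc1a3 in FPKM, 1 point per library, with grey lines at ratios of 1, 2 and 4. WT 1, WT 2 and Homo 4 lie beyond a ratio of 4 (4.44, 4.93 and 4.49), and Homo 1 lies on the line of 1 (0.990).

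Glul, which encodes glutamine synthetase, the enzyme that turns the recovered glutamate into glutamine (chr1:153899944-153909723, plus strand), was the steadiest of the 9. It was 122, 134, 121, 108 and 160.3 FPKM in WT 1 to WT 5, with 99.7, 135 and 167 FPKM at the lowest, median and highest Homo library. The groups lay over each other, with means of 129 ± 19.6 FPKM (SD, n = 5) and 134 ± 21.5 FPKM (SD, n = 7), and the coefficient of variation was 15.2% in WT and 16.1% in Homo. Homo differed from WT by a log2 fold change of 0.044 (SE 0.16, 95% interval −0.30 to 0.38; limma p = 0.788, adjusted p = 0.990; exact permutation p = 0.747). Its sign turned under quantile normalization (−0.018) and when WT 4 or Homo 2 was left out. Of its 50-base stretches 15.0% recur in other genes, most in the pseudogene Glns-ps1, which was at 0 in 11 of 12 libraries.

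The channels of the endfeet and of cell coupling had higher means in Homo that did not pass the test. Aqp4, the water channel of astrocyte endfeet, was 11.001, 10.6, 10.8, 14.8 and 18.1 FPKM in WT 1 to WT 5 and 8.72, 17.5 and 21.9 FPKM at the lowest, median and highest Homo library. Homo 6 and Homo 7 exceeded the highest WT library, Homo 3 was below the lowest, and 6 of the 7 Homo libraries exceeded the WT median. Means were 13.1 ± 3.32 FPKM (SD, n = 5) in WT and 16.3 ± 4.25 FPKM (SD, n = 7) in Homo. The log2 fold change was 0.29 (SE 0.23, 95% interval −0.20 to 0.78; limma p = 0.230, adjusted p = 0.917; exact permutation p = 0.211). With the library set in the limma fit it was 0.43 (adjusted p = 0.978), and without Homo 3 it was 0.42 (limma adjusted p = 0.839, with an unadjusted p under 0.05).

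Gja1, which encodes connexin 43, the main gap junction protein of astrocytes (chr10:56377330-56402513, plus strand), was the tightest gene in WT. Its values were 13.7, 16.4, 14.1, 14.4 and 18.1 FPKM in WT 1 to WT 5, and 10.8, 15.4 and 31.2 FPKM at the lowest, median and highest Homo library. Homo 1 alone lay above the WT range and Homo 3 and Homo 5 lay below it. Around means of 15.3 and 17.2 FPKM the coefficient of variation was 12.2% in WT and 38.4% in Homo. The log2 fold change was 0.098 (SE 0.23, 95% interval −0.38 to 0.58; limma p = 0.670, adjusted p = 0.982; exact permutation p = 0.711), and without Homo 1 it was −0.050.

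Gfap, the intermediate filament that astrocytes build up when reactive (chr11:102887336-102900912, minus strand), varied several-fold within each genotype. It was 8.35, 22.9, 24.9, 8.96 and 30.0 FPKM in WT 1 to WT 5 and 7.24, 18.6 and 26.0 FPKM at the lowest, median and highest Homo library. WT split into a low pair, WT 1 and WT 4, and 3 high libraries, and the Homo libraries filled the range between, with none above it and Homo 4 below. Means were 19.0 ± 9.82 FPKM (SD, n = 5) in WT and 17.5 ± 7.06 FPKM (SD, n = 7) in Homo, and the log2 fold change was −0.056 (SE 0.37, 95% interval −0.86 to 0.74; limma p = 0.883, adjusted p = 0.993; exact permutation p = 0.890). Its sign was not stable, since it was 0.15 with the library set in the fit, 0.39 within the high-detection set, −0.29 without WT 1 and 0.14 without WT 5.

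S100b, which encodes a calcium-binding protein of astrocytes that some oligodendrocyte lineage cells also make (chr10:76253853-76261159, plus strand), was 29.2, 24.4, 19.6, 21.4 and 33.4 FPKM in WT 1 to WT 5. In Homo the lowest, median and highest values were 17.1, 33.6 and 38.4 FPKM. Among Homo libraries 6 of 7 exceeded the WT median and 4 exceeded the highest WT, but Homo 2 was the lowest of all 12. From means of 25.6 ± 5.66 FPKM (SD, n = 5) in WT and 31.2 ± 7.34 FPKM (SD, n = 7) in Homo, the log2 fold change was 0.26 (SE 0.22, 95% interval −0.20 to 0.72; limma p = 0.248, adjusted p = 0.919; exact permutation p = 0.232), and without Homo 2 it was 0.39 (limma adjusted p = 0.941, with an unadjusted p just under 0.05). Without WT 3 it was 0.18, and it was 0.082 within the low-detection set and 0.55 within the high-detection set (limma interaction, adjusted p = 0.907).

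Aldh1l1, the folate enzyme widely used as a pan-astrocyte marker (chr6:90486427-90600203, plus strand), had the widest spread. It was 8.02, 1.92, 0.905, 3.99 and 2.83 FPKM in WT 1 to WT 5 and 1.65, 5.81 and 10.2 FPKM at the lowest, median and highest Homo library, an 11.2-fold range over the 12 libraries. No Homo library lay below WT 3, and Homo 1 alone lay above WT 1. Means were 3.53 ± 2.75 FPKM (SD, n = 5) in WT and 5.48 ± 2.78 FPKM (SD, n = 7) in Homo. The log2 fold change of 0.58 was the largest upward one of the 9 (SE 0.40, 95% interval −0.28 to 1.45), and it did not pass in limma (p = 0.170, adjusted p = 0.915) or the exact permutation test (p = 0.212). It was 0.12 within the low-detection set and 1.05 within the high-detection set (limma interaction, adjusted p = 0.907), and without WT 1 it was 0.88 (limma adjusted p = 0.767, with an unadjusted p under 0.05) and without WT 3 it was 0.32 (limma adjusted p = 0.988). At these low levels the value rests on few fragments, and 8.34% of its 50-base stretches recur in Gm15756, which stood at 0 to 2.68 FPKM.

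Sox9, the transcription factor that specifies astrocytes in development and stays on in the adult (chr11:112782224-112787760, plus strand), had a lower mean in Homo. It was 9.37, 6.77, 6.47, 5.50 and 10.04 FPKM in WT 1 to WT 5 and 1.84, 7.77 and 9.76 FPKM at the lowest, median and highest Homo library. In Homo 2, Homo 3 and Homo 4 it lay below every WT library and in none above the highest WT. Yet 4 of the 7 Homo libraries exceeded the WT median of 6.77 FPKM, and so did the Homo median. Means were 7.63 ± 1.96 FPKM (SD, n = 5) in WT and 6.47 ± 3.02 FPKM (SD, n = 7) in Homo. Its log2 fold change was −0.31 (SE 0.33, 95% interval −1.01 to 0.39; limma p = 0.360, adjusted p = 0.923; exact permutation p = 0.412). It was −0.60 within the low-detection set and 0.26 within the high-detection set (limma interaction, adjusted p = 0.907), and without Homo 3 it was −0.098.

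**Figure D3:**
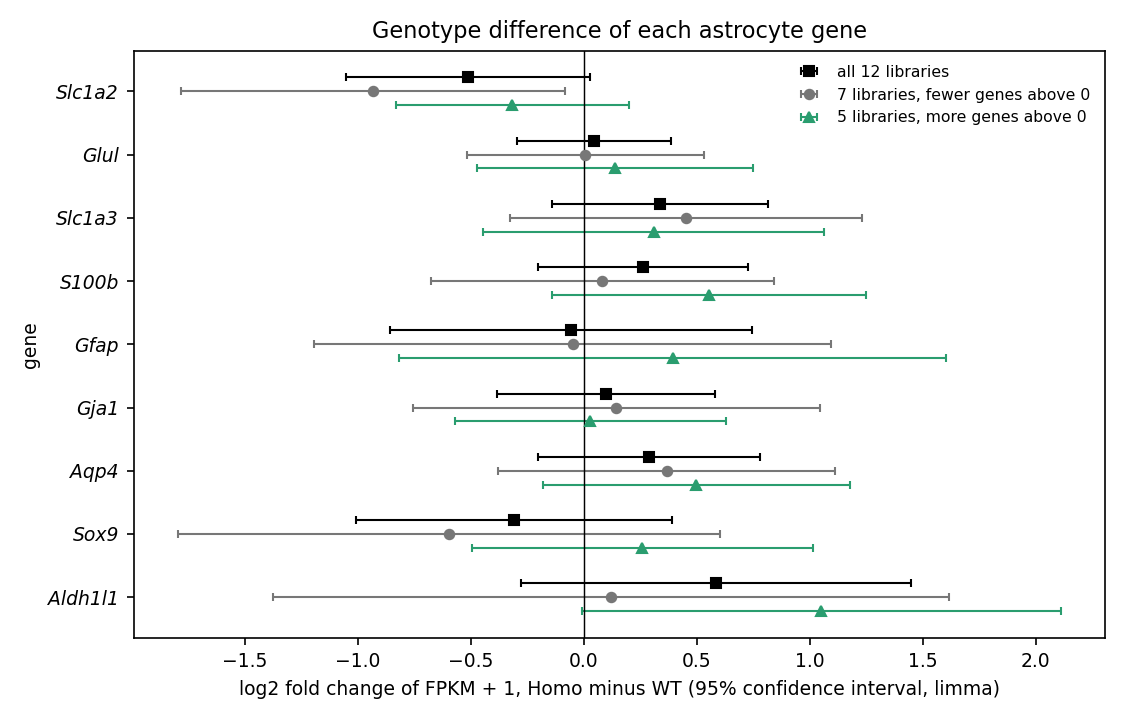
Log2 fold change of FPKM + 1, Homo minus WT, of each astrocyte gene with its 95% confidence interval from limma, over all 12 libraries (black squares), the low-detection set (grey circles) and the high-detection set (green triangles). Over all libraries each interval spans 0, that of Slc1a2 from −1.05 to 0.026, and Sox9 and Gfap lie on opposite sides of 0 in the 2 sets.

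Between the library sets, with genotype in the limma fit, 0 of the 9 genes passed an adjusted p under 0.05 for the set term, where 0.178% of all genes did, and 0 passed an unadjusted p under 0.05, where 8.42% did. The differences nearest to the threshold, high-detection minus low-detection on the log2 scale, were 0.44 for Aqp4 (limma adjusted p = 0.611), 0.66 for Gfap (0.668) and −0.44 for Slc1a2 (0.668). For none of the 9 did the genotype difference itself differ between the sets at an unadjusted limma p under 0.05, against 5.18% of all genes. Homo had the higher mean for 6 of the 9 genes in the low-detection set and for 8 of the 9 in the high-detection set. Slc1a2 had the lower mean in Homo in both sets.

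Across the 12 libraries most pairs of astrocyte genes leaned the same way. Of the 36 pairs 29 had a positive Pearson r of log2(FPKM + 1), with a median of 0.28, and 30 were positive once the means of genotype and library set were removed. Aqp4 and Glul had the highest r, 0.68 (permutation p = 0.0153, adjusted over the 36 pairs 0.391), with a Spearman rho of 0.69 (permutation p = 0.0166, adjusted 0.521). Slc1a3 and Gja1 followed with an r of 0.63 (permutation p = 0.0217, adjusted 0.391) and a rho of 0.56 (permutation p = 0.0628, adjusted 0.521). Left without the 2 libraries farthest from the median of the first gene of each pair, r was 0.49 and 0.31, and within the 7 libraries of the low-detection set it was 0.73 and 0.66. The other set holds 5 libraries, too few for a value. No pair passed after adjustment by either measure. Which pair came second depended on the measure. S100b and Sox9 had an r of 0.52 and a rho of 0.61 (permutation p = 0.0406, adjusted 0.521). With the means of genotype and library set removed their r was 0.68, against 0.66 for Slc1a3 and Gja1. Slc1a2 was negative in 5 of its 8 pairs, but in 3 of 8 once the means of genotype and library set were removed. With Slc1a3 its r was −0.44, the lowest of all (permutation p = 0.150, adjusted 0.573; rho −0.43, permutation p = 0.170, adjusted 0.529), −0.40 without the 2 farthest libraries and −0.44 in the set of 7. With the means of genotype and library set removed that r was −0.22, and the lowest was then −0.42 for Gfap with Aldh1l1.

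**Figure D4:**
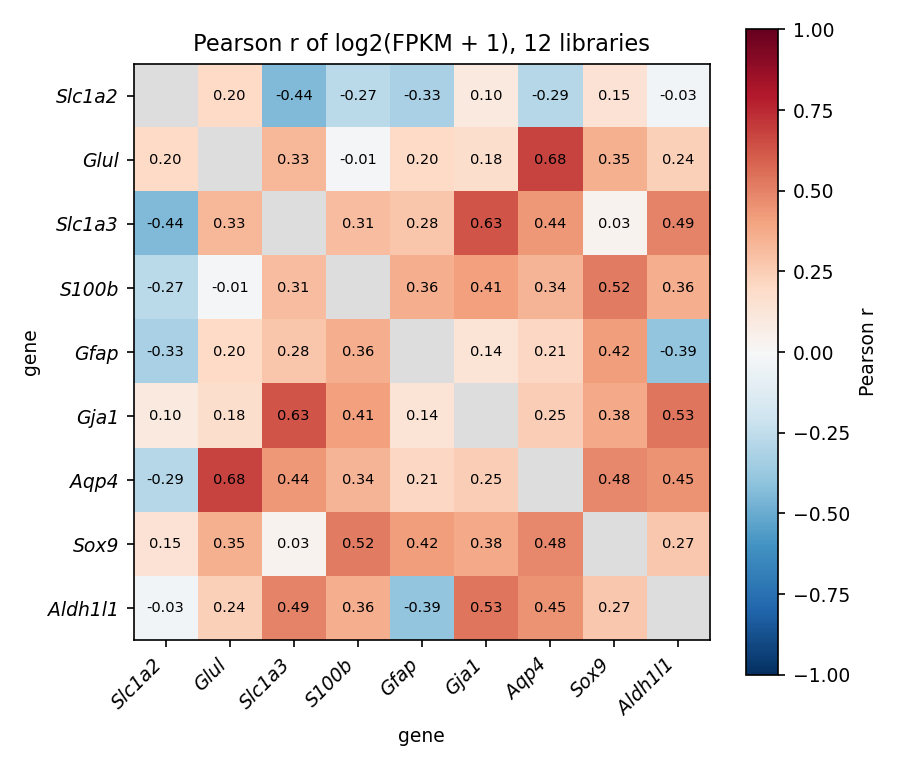
Pearson r of log2(FPKM + 1) over the 12 libraries for each of the 36 pairs of astrocyte genes, in order of mean level, red positive and blue negative. The row of Slc1a2 holds 5 of the 7 negative values, from −0.44 with Slc1a3, and the highest value is 0.68 for Aqp4 with Glul.

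The genes whose level over the 12 libraries was most like the mean of the 9 stood in none of the marker lists. Of the other genes tested, Tmem130 had a Pearson r of 0.960, Cdk10 0.938, Atp1b1 0.928, C78339 0.928 and Lmbrd2 0.926 with the mean log2(FPKM + 1) of the 9 genes. These were the highest of the values over all genes tested, all from the same libraries with shared depth and amplification, and are given as a description. Their mean levels ran from 8.94 FPKM for Cdk10, a cyclin-dependent kinase, to 331 FPKM for Atp1b1, the β1 subunit of the sodium pump.

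Further astrocyte genes were grouped in lists by function, and 0 of them passed an adjusted limma p under 0.05. The shares over all genes tested were 49.3% with the higher mean in Homo and 5.55% with an unadjusted limma p under 0.05. Of 15 tested genes of glutamate and amino acid handling 7 had the higher mean in Homo (median log2 fold change −0.035), and Glud1, glutamate dehydrogenase, had a log2 fold change of 0.33 (limma adjusted p = 0.915). Of 13 genes of gap junctions, potassium and ion handling 9 were higher (median 0.098), and Kcnj10, the inward rectifier Kir4.1 that takes up potassium, averaged 48.1 ± 5.37 FPKM (SD) in WT against 62.1 ± 9.75 FPKM (SD) in Homo (log2 fold change 0.36, limma adjusted p = 0.899, with an unadjusted p under 0.05). Gjb2, connexin 26, had −0.75 (limma adjusted p = 0.899).

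The endfoot anchoring complex, which ties channels to the basal lamina, had 3 of 7 genes higher in Homo (median −0.010), and its 2 smallest p-values were those of Dag1, dystroglycan (−0.23, limma adjusted p = 0.919), and Dmd, dystrophin (0.21, adjusted p = 0.923). Astrocyte transcription factors had 4 of 14 higher (median −0.19), led by Nfib, a nuclear factor I (−0.71, limma adjusted p = 0.899), and Id2, an inhibitor of DNA binding (0.45, adjusted p = 0.915). Filament and scaffold genes had 2 of 5 higher (median −0.016), led by Ezr, ezrin (0.46, limma adjusted p = 0.899), and Plec, plectin (0.72, adjusted p = 0.899). None of these 26 genes had an unadjusted p under 0.05.

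Of other astrocyte-enriched genes 37 of 49 had the higher mean in Homo, against 49.3% of all genes, with a median of 0.22. Without WT 3, where this list summed to 4214 FPKM against 5674 to 8167 FPKM in the other WT libraries, these were 32 of 49 and 0.076. An unadjusted p under 0.05 was reached by 3 of the 49 (6.12%), near the 5.55% of all genes, each with the higher mean in Homo. Mt1, a metallothionein that binds zinc and copper, averaged 195 ± 51.5 FPKM (SD, n = 5) in WT and 347 ± 108 FPKM (SD, n = 7) in Homo (log2 fold change 0.83, limma adjusted p = 0.707). Itih3, an inter-alpha-trypsin inhibitor heavy chain, was 32.4 to 48.8 FPKM in WT and 49.7 to 102 FPKM in Homo and so did not overlap (log2 fold change 0.68, limma adjusted p = 0.763). Of all genes tested 0.221% did not overlap, and Itih3 was named for its small p-value. Fjx1, a secreted protein of the Golgi kinase family, was 0.866 to 5.52 FPKM in WT and 1.94 to 6.00 FPKM in Homo (log2 fold change 0.87, limma adjusted p = 0.841). The median of the list was −0.032 in the low-detection set and 0.38 in the high-detection set, or 0.24 there without WT 3.

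Genes of reactive astrocytes gave no call. A mean of 1 FPKM was reached by 19 of the 35 listed. Of these 12 were higher in Homo, against 49.3% of all genes, with a median of 0.054. None had an unadjusted p under 0.05, against 5.55% of all genes. Ptx3 and Slc10a6 were listed at 0 in all 12 libraries and 20 of the 35 at 0 in some library. H2-T23, a class I histocompatibility gene (0.52, limma adjusted p = 0.905), and Psmb8, an immunoproteasome subunit (0.49, adjusted p = 0.915), had the smallest p-values.

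**Figure D5:**
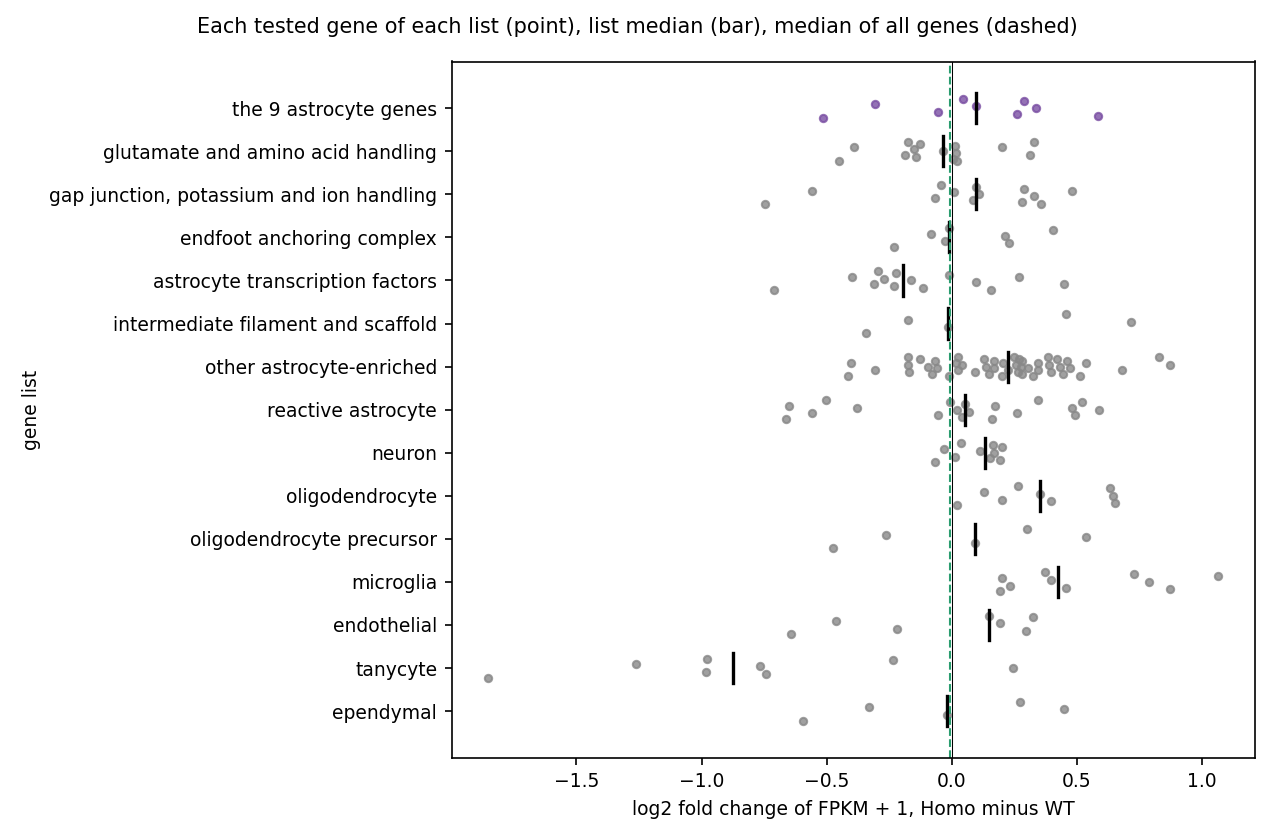
Log2 fold change of FPKM + 1, Homo minus WT, of each tested gene (points) in 15 lists, with the median of each list (bar) and of all genes tested (dashed line, −0.0062). The 9 astrocyte genes (purple) run from −0.51 for Slc1a2 to 0.58 for Aldh1l1 around a median of 0.098, the microglial list lies wholly above 0 and the tanycyte list mostly below.

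Markers of other cell types were also in the captures, and their part in the values of the astrocyte genes was not tested. Neuronal markers were the highest of these other types, summing to 905 to 1342 FPKM over 10 genes in WT and to 963 to 1358 FPKM in Homo. The 9 astrocyte genes summed to 396 to 603 FPKM and 338 to 549 FPKM. Such sums depend on the genes listed and do not rank the cell types. The other astrocyte-enriched list, with 51 genes, summed to 4214 to 8167 FPKM in WT and 6552 to 8073 FPKM in Homo. For comparison, 49.3% of all genes tested had the higher mean in Homo and 5.55% had an unadjusted limma p under 0.05. Microglial markers were higher in Homo for 10 of 10 genes (median 0.42, 3 with an unadjusted limma p under 0.05). They summed to 67.8 to 127 FPKM in WT and 103 to 178 FPKM in Homo. Oligodendrocyte markers were higher for 9 of 9 tested (median 0.35, none with an unadjusted p under 0.05) with summed levels of 91.2 to 563 FPKM in WT and 156 to 417 FPKM in Homo, and WT 5, with 563 FPKM, was also the WT library highest in Slc1a3, Gfap, Aqp4, Glul, S100b, Gja1 and Sox9. Tanycyte markers were lower in Homo for 7 of 8 tested (median −0.87, 2 with an unadjusted p under 0.05). They summed to 35.7 to 182 FPKM in WT and 24.9 to 81.8 FPKM in Homo. Their median difference between the library sets, high-detection minus low-detection, was 0.85. With the library set in the fit the genotype medians were −0.55 for tanycyte, 0.47 for microglial and 0.54 for oligodendrocyte markers.

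Oligodendrocyte precursor markers had 3 of 5 higher (median 0.092, summed 36.9 to 75.1 FPKM in WT and 40.3 to 64.5 FPKM in Homo), endothelial markers 4 of 7 (median 0.15, 28.0 to 40.8 FPKM and 29.1 to 53.4 FPKM) and ependymal markers 2 of 5 (median −0.020, 25.1 to 68.1 FPKM and 31.6 to 71.1 FPKM). No marker in these lists passed an adjusted p under 0.05 in limma, and none of the lists had a marker at 0 in all libraries. The neuronal median was 0.13 with 8 of 10 higher in Homo. Without WT 3 it was 0.0079 with 6 of 10 higher, the microglial median was 0.30 with 10 of 10 higher, the oligodendrocyte median 0.59 with 9 of 9 higher and the tanycyte median −0.50 with 7 of 8 lower.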

How the data were processed

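RNA from 5 WT and 7 Homo samples of laser-captured ARC had been amplified across the whole transcriptome, sheared, bar-coded and sequenced by the authors. The deposited table held FPKM per gene and library, made by the authors. The submitters' processing notes name TopHat2 2.0.8, Cufflinks 2.2.1 and the build GRCm38, with no role or order, and the annotation and any further scaling are not given in the sources used here. All 12 value columns were matched to samples by their names (those of Homo 4 and Homo 5 have an extra letter), and 0 were left over. No counts were used, and fragments were estimated from the steps between low values of transcripts of 600 to 8000 bases, less 180 bases, where 41.7% to 87.5% of low values lay within 0.2 of a whole step. Values without steps would also often lie that close. The share was lowest in Homo 3 (41.7%), Homo 2 (46.1%) and WT 2 (50.0%), where it gives little sign of steps.

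The scale was log2(FPKM + 1), on which changes of low genes are understated. The 14017 genes with a mean of at least 1 FPKM were fitted with limma 3.58.1 in R 4.3.3 (genotype alone as a term, eBayes with trend and robust) with Benjamini-Hochberg adjustment over all of them. Exact permutation tests, two-sided, used every split into 5 and 7 (smallest p 0.0013) or every rearrangement within the library sets, which are parted where the number of genes above 0 jumps (smallest p 0.0048). Pair correlations used 100000 permutations (Python 3.11.15, SciPy 1.17.1). Scripts were tested on simulated data, where 17% and 78% of 200 genes changed by 1 and 2 on the log2 scale were recovered among 14017. The members and the gene lists were chosen with earlier results of these data known. The genes named are the 9, the smallest p-values of each further astrocyte list and the 5 closest to the mean of the 9, and 1 gene that this rule names is not reported here. Alternatives covered the pseudocount, filters, scaling, weights, library sets, Homo 1 to 5 alone, a replicate block and each library left out. Gene lists were also described without WT 3, a choice made after seeing the data. Positions and transcripts are from GENCODE mouse release 21. Of 53 other astrocyte-enriched symbols, 51 were found.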

Additional observations from a re-analysis of the deposited data

Results flagged for a closer look

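Among the 18 groups of values formed by 9 genes and 2 genotypes, 2 held a library far from the rest, where chance alone marks about 1 group in 20. Gaps and ranges were taken on the log2(FPKM + 1) scale, not in FPKM. Slc1a2 in Homo 4 was 269.7 FPKM. Its gap to the next Homo library was 0.581 of the range of the Homo libraries on that scale. The critical value is 0.568 for 7 samples. S100b in Homo 2 was 17.1 FPKM, the lowest of Homo, also with a gap of 0.581 of the range on the log2 scale. The fold changes without each of these libraries stand beside the genes above.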

How the results depend on the processing

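None of the 9 genes passed an adjusted p under 0.05 in any of the 24 alternatives. Aqp4, Slc1a2, Slc1a3, Aldh1l1 and S100b kept their sign in all 24. Slc1a2 had an unadjusted limma p under 0.05 in 6. Among the 9, 1 gene did so under quantile normalization, with the library set as a covariate and within the low-detection set, and 0 to 2 when single libraries were left out (2 without WT 5). The count of all genes called was 1, and it was 6 within the low-detection set, 19 within the high-detection set, 4 with Homo 1 to 5 alone and 1 to 3 when single libraries were left out (3 without WT 2, 2 without Homo 4). Replicate numbers did not pair the samples (correlations of same-numbered samples −0.023 to 0.029, and 1 of 5 numbers matched best with itself), and with the replicate block, WT 1 to 5 and Homo 1 to 5, 2 genes were called and none of the 9. Signs turned for Glul under quantile normalization (−0.018), for Gfap with array weights (0.22), the set as a covariate (0.15) and the high-detection set alone (0.39), and for Sox9 in the last (0.26). Leaving out single libraries moved Gfap from −0.29 to 0.14, Glul from −0.017 to 0.12 and Gja1 from −0.050 to 0.19. The cause was not tested. FPKM steps give depth only roughly.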
